A study of Mus musculus with 6 samples.

Results

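The transcriptome of wild type dentate tissue was described from 2 of the 6 libraries of the series, those titled as wild type replicates 1 and 2. The study as a whole compared wild type mice with mice carrying 1 or 2 floxed Sox11 alleles, but the genotypes were not compared here beyond a check of Sox11 against the labels. The tissue is labelled dentate neuroepithelium of mouse brain at embryonic day 14, taken free of its covering, washed and frozen before oligo(dT)-selected RNA was sequenced. The labels name no allele or treatment for the wild type animals and give no strain, sex, litter or number of embryos per library. Whether the libraries came from separate animals is not said, and with 1 library against 1 no test was possible. Values are TPM, each gene's share of all transcripts corrected for transcript length, so that levels of different genes can be set side by side. A pair of values below gives replicate 1 and then replicate 2.

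The dentate gyrus forms from a strip of ventricular wall at the medial edge of the telencephalon, next to the cortical hem, a source of Wnt and Bmp signals. Its progenitors express Sox2, Pax6 and Hes5, pass through Eomes-positive intermediate progenitors and give rise to Prox1-positive granule cells, while Reln-secreting Cajal-Retzius cells gather along the nearby hippocampal fissure. The first neurons of this region form before most astrocytes appear, and myelin follows later.

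In each library 14217 and 14093 genes reached 1 TPM, and 13812 genes did so in both, of which 96.3% were protein-coding. The 100 most abundant genes held 27.1% and 30.6% of all TPM. Transcripts of the mitochondrial genome took 10.1% and 13.9% of the total, messages of cytosolic ribosomal proteins 10.1% and 9.37%, and pseudogenes 2.54% and 2.53%. Sox11, the gene targeted in the other genotypes (ENSMUSG00000063632.6, chromosome 12 from 27334264 to 27342574 on GRCm38, minus strand), stood at 192 and 130.2 TPM. In the 4 libraries with floxed alleles Sox11 lay between 5.06 and 56.1 TPM, so it did not go against the wild type labels. The related SoxC genes Sox4 and Sox12 were at 297 and 215 TPM and at 63.9 and 62.2 TPM.

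Genes of the growing neuronal cytoskeleton led the table once mitochondrial and ribosomal transcripts were set aside. Tuba1a, the main alpha tubulin of young neurons, was the most abundant at 8963 and 10238 TPM, which is rank 7 among all genes. The beta tubulins Tubb2b (3240 and 3495 TPM), Tubb2a (1582 and 2127 TPM), Tubb5 (1871 and 1808 TPM) and Tubb3 (1471 and 1728 TPM) were also among the first 25. So were Stmn1, which destabilises microtubules, at 3128 and 2719 TPM, and the actin-binding thymosins Tmsb4x (5072 and 5160 TPM) and Tmsb10 (4242 and 4093 TPM). Tubulin genes share long stretches of sequence, so their single levels depend on how the authors' software divided shared reads. The remaining actin-related genes of the 25 were Actg1 (2895 and 2791 TPM) and Marcksl1, a substrate of protein kinase C at the growth cone membrane (1749 and 1540.5 TPM).

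Most others of the 25 serve general cell functions. They were the translation factors Eef1a1 (7161 and 6735 TPM) and Eef2 (1706 and 1441 TPM), the acidic nuclear proteins Ptma (2970 and 2470 TPM) and Ptms (1680 and 1968 TPM), Tpt1 (2483 and 2396 TPM), the ferritin chains Ftl1 (2185 and 2183 TPM) and Fth1 (1472 and 1631 TPM), Ppia (2132 and 2193 TPM), Ubb (2259 and 2002 TPM), Hnrnpa2b1 (1729 and 1433 TPM), and the chaperones Hsp90ab1 (1637 and 1658 TPM) and Hspa8 (1499 and 1609 TPM). Calm2, a calmodulin, stood at 1698 and 2072 TPM. Nnat, an imprinted gene of the developing brain, stood at 2510 and 3114 TPM. Fabp7, the lipid-binding protein of radial glia, was the only one of the 25 that also stands in the fixed list for progenitors, at 2268 and 2477 TPM. Both libraries shared 92 of their own 100 most abundant genes.

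Progenitors of the neuroepithelium were present by all of their defining markers. Beside Fabp7, the notch target Hes5 stood at 112 and 75.4 TPM, the stem cell factor Sox2 at 93.5 and 73.0 TPM, the intermediate filament Nes at 42.9 and 35.4 TPM and the dorsal progenitor factor Pax6 at 28.9 and 20.1 TPM. All 20 genes listed for radial glia and neural stem cells exceeded 1 TPM in both libraries, and their median level lay at the 86.0th percentile of the 14188 genes that averaged 1 TPM or more. The most abundant after Fabp7 were Dbi (1195 and 1151 TPM), Vim (360.2 and 240 TPM), the glutamate transporter gene Slc1a3 (268 and 267 TPM) and Hopx (251 and 179 TPM). Of 14 genes of intermediate progenitors, 13 exceeded 1 TPM in both libraries. Eomes, their defining transcription factor, stood at 90.05 and 52.6 TPM, Neurog2 at 56.9 and 41.5 TPM and Insm1 at 53.7 and 43.6 TPM. Mfap4 (208 and 114 TPM), Sstr2, a somatostatin receptor (118 and 95.3 TPM), Gadd45g (103 and 67.2 TPM) and Tbr1 (93.9 and 61.2 TPM) were higher still. Neurog1, the exception, lay at 0.75 and 0.42 TPM. Tbr1 is also listed for Cajal-Retzius cells and for neocortex, so its level is not that of intermediate progenitors alone.

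Young neurons gave the highest levels of any cell type list. All 20 listed genes exceeded 10 TPM in both libraries, 16 exceeded 100 TPM, and their median lay at the 97.8th percentile. Beside the tubulins and Stmn1, Stmn2 stood at 1104 and 1635 TPM, Nrep at 1264 and 1387 TPM and Crmp1 at 990 and 1183 TPM. Dcx, a microtubule protein of migrating neurons, was nearly equal in the libraries at 388 and 391 TPM. Igfbpl1, which marks neurons just after their last division, was higher in replicate 1, at 554 and 330 TPM, and so was Neurod1, at 392 and 234 TPM.

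Granule cell identity was carried by early markers, while the defining markers of settled granule cells were low. Prox1, the determinant of granule cell fate, stood at 175 and 110.5 TPM. Calb2, a calcium-binding protein of immature granule cells and of Cajal-Retzius cells, stood at 454 and 300.1 TPM, and Bhlhe22 at 360 and 315 TPM. The defining markers of more advanced granule cells were far lower, with Tdo2 at 5.59 and 6.16 TPM, C1ql2 at 2.76 and 2.05 TPM and Dsp at 1.62 and 1.36 TPM. Of the 20 granule lineage genes, 18 exceeded 1 TPM in both libraries, 10 exceeded 10 TPM, and Lct and Glp1r stayed below 1 TPM in both. Not all members beyond the early ones were that low. Stxbp6 (26.57 and 29.35 TPM), Calb1 (18.5 and 27.1 TPM) and Penk (19.21 and 16.75 TPM) exceeded 10 TPM in both libraries. So did C1ql3 (17.46 and 17.65 TPM) and Il16 (12.91 and 14.66 TPM).

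Pyramidal neurons of the hippocampus were also represented. Grik4, a kainate receptor gene enriched in field CA3, stood at 36.1 and 37.7 TPM, Fibcd1 at 10.1 and 6.85 TPM and Wfs1, a marker of field CA1, at 6.23 and 6.39 TPM. The most abundant members were Neurod6 (290 and 491 TPM), Crym (197 and 425 TPM), Zbtb20 (161 and 136 TPM), Mpped1 (72.6 and 70.3 TPM) and Cpne4 (51.5 and 85.4 TPM).

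Cajal-Retzius cells showed through Reln at 532 and 267 TPM, Trp73, encoding a p53 relative, at 54.3 and 27.7 TPM, and the LIM homeobox genes Lhx5 (24.7 and 12.4 TPM) and Lhx1 (11.4 and 5.28 TPM). All 4 defining markers were about as far apart between the libraries, each higher in replicate 1. In bulk tissue, fewer cells of a type and less RNA per cell cannot be told apart. Other high members were Cxcr4, a chemokine receptor (174 and 124 TPM), and Nhlh2 (120 and 68.7 TPM), and 13 of 14 members exceeded 1 TPM in both libraries.

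GABAergic neurons, which reach the hippocampus from the ventral telencephalon, were present at moderate levels. Gad1, which makes GABA, stood at 79.5 and 69.0 TPM, Gad2 at 16.2 and 17.4 TPM, the vesicular transporter gene Slc32a1 at 20.9 and 25.9 TPM and Lhx6, of interneurons from the medial ganglionic eminence, at 42.0 and 38.2 TPM. The peptide genes Sst (132 and 194 TPM), Npy (78.1 and 101 TPM) and Cck (77.9 and 224 TPM) and the homeobox gene Dlx1 (81.6 and 64.7 TPM) led the list. Vip stayed below 1 TPM, at 0.93 and 0.94 TPM, and Pvalb, which appears late, was listed at 0 and 0.29 TPM. Of 19 matched members, 17 exceeded 1 TPM in both libraries.

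Astrocyte genes stood nearly as high in rank as those of progenitors, with a median at the 85.3th percentile and all 20 above 1 TPM in both libraries. Gfap, the intermediate filament of astrocytes, stood at 304 and 268 TPM. Aqp4, the water channel of astrocyte end feet, stood at 42.8 and 43.0 TPM, the connexin gene Gja1 at 52.1 and 48.3 TPM and Aldh1l1 at 22.4 and 27.8 TPM. Cst3 (1030.3 and 1070.2 TPM), the lipid carrier Apoe (830.4 and 1107 TPM) and Sparcl1 (298 and 340 TPM) were the most abundant, but Cst3 and Apoe are also made by microglia and Slc1a3 is listed for radial glia too. The libraries lay close together for Gfap, Aqp4 and Gja1. The lowest members of the list, S100b (2.28 and 5.69 TPM) and Gjb6 (5.81 and 1.53 TPM), differed more than 2-fold, in opposite directions.

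Oligodendrocyte precursors were detected, and mature myelin genes were mostly near the floor of the table. Pdgfra, the growth factor receptor of precursors, stood at 26.8 and 27.9 TPM, Cspg4 at 10.5 and 9.58 TPM, Sox10 at 8.42 and 10.7 TPM and Gpr17 at 8.45 and 13.3 TPM. Olig1 reached 75.8 and 119 TPM, Ptprz1, shared with radial glia, 126 and 156 TPM, Vcan 52.4 and 43.8 TPM, and Olig2 24.4 and 38.0 TPM. Of 15 myelination genes, 8 exceeded 1 TPM in both libraries and 2, Cnp (22.3 and 28.2 TPM) and Mbp (13.9 and 35.7 TPM), exceeded 10 TPM. Mog stood at 1.90 and 2.03 TPM, Mag at 0.83 and 1.83 TPM and Mobp at 0.41 and 0.26 TPM.

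Microglia and vessels showed all of their defining markers above 1 TPM in both libraries. For microglia, C1qa stood at 32.1 and 33.9 TPM, P2ry12 at 16.1 and 23.5 TPM, Csf1r at 14.7 and 16.6 TPM, Cx3cr1 at 12.9 and 16.2 TPM and Tmem119 at 4.05 and 4.10 TPM, and 18 of 20 listed genes exceeded 1 TPM in both libraries. For endothelium, all 15 genes did so, with the tight junction gene Cldn5 at 137 and 91.4 TPM, Pecam1 at 14.9 and 10.8 TPM and Cdh5 at 15.98 and 7.86 TPM. Pericyte and smooth muscle genes were led by Rgs5 (137 and 99.1 TPM) and Vtn (65.6 and 27.7 TPM), with Pdgfrb at 7.65 and 5.83 TPM and Kcnj8 at 4.43 and 4.59 TPM. Genes of meningeal fibroblasts were present in both libraries and lower in replicate 2, among them the collagen gene Col1a1 (21.7 and 9.19 TPM), Dcn (39.3 and 15.7 TPM), Lum (5.44 and 2.61 TPM) and Foxc1 (4 and 1.75 TPM).

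Choroid plexus and ependyma were close to absent from both wild type libraries. Ttr, encoding transthyretin, stood at 3.07 and 2.04 TPM, Kl at 0.43 and 1.06 TPM, Folr1 at 0.40 and 0.20 TPM and Kcnj13 at 0.37 and 0 TPM. Enpp2, at 48.8 and 27.0 TPM, was the only choroid plexus gene above 10 TPM, and it is also made by oligodendrocytes. Of 20 ependymal and motile cilia genes, 6 exceeded 1 TPM in both libraries and 0 reached 10 TPM. Foxj1, the regulator of motile cilia, stood at 3 and 3.14 TPM, Rsph4a at 0.07 and 0.09 TPM, Ccdc153 at 0.59 and 0 TPM, and Tmem212 was listed at 0 in both. Blood contributed adult globins, with Hba-a1 at 343 and 198 TPM and Hbb-bs at 53.6 and 20.6 TPM, while the embryonic globin genes Hbb-y and Hbb-bh1 were listed at 0 and Hba-x at 0.13 and 0 TPM. The alpha globin genes are near-identical copies, as are the adult beta globin genes, so their single levels are uncertain. Alas2, of heme synthesis in red cells, stood at 3.92 and 1.32 TPM, and Slc4a1, of their membrane, at 0.09 and 0.37 TPM.

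**Figure D1:**
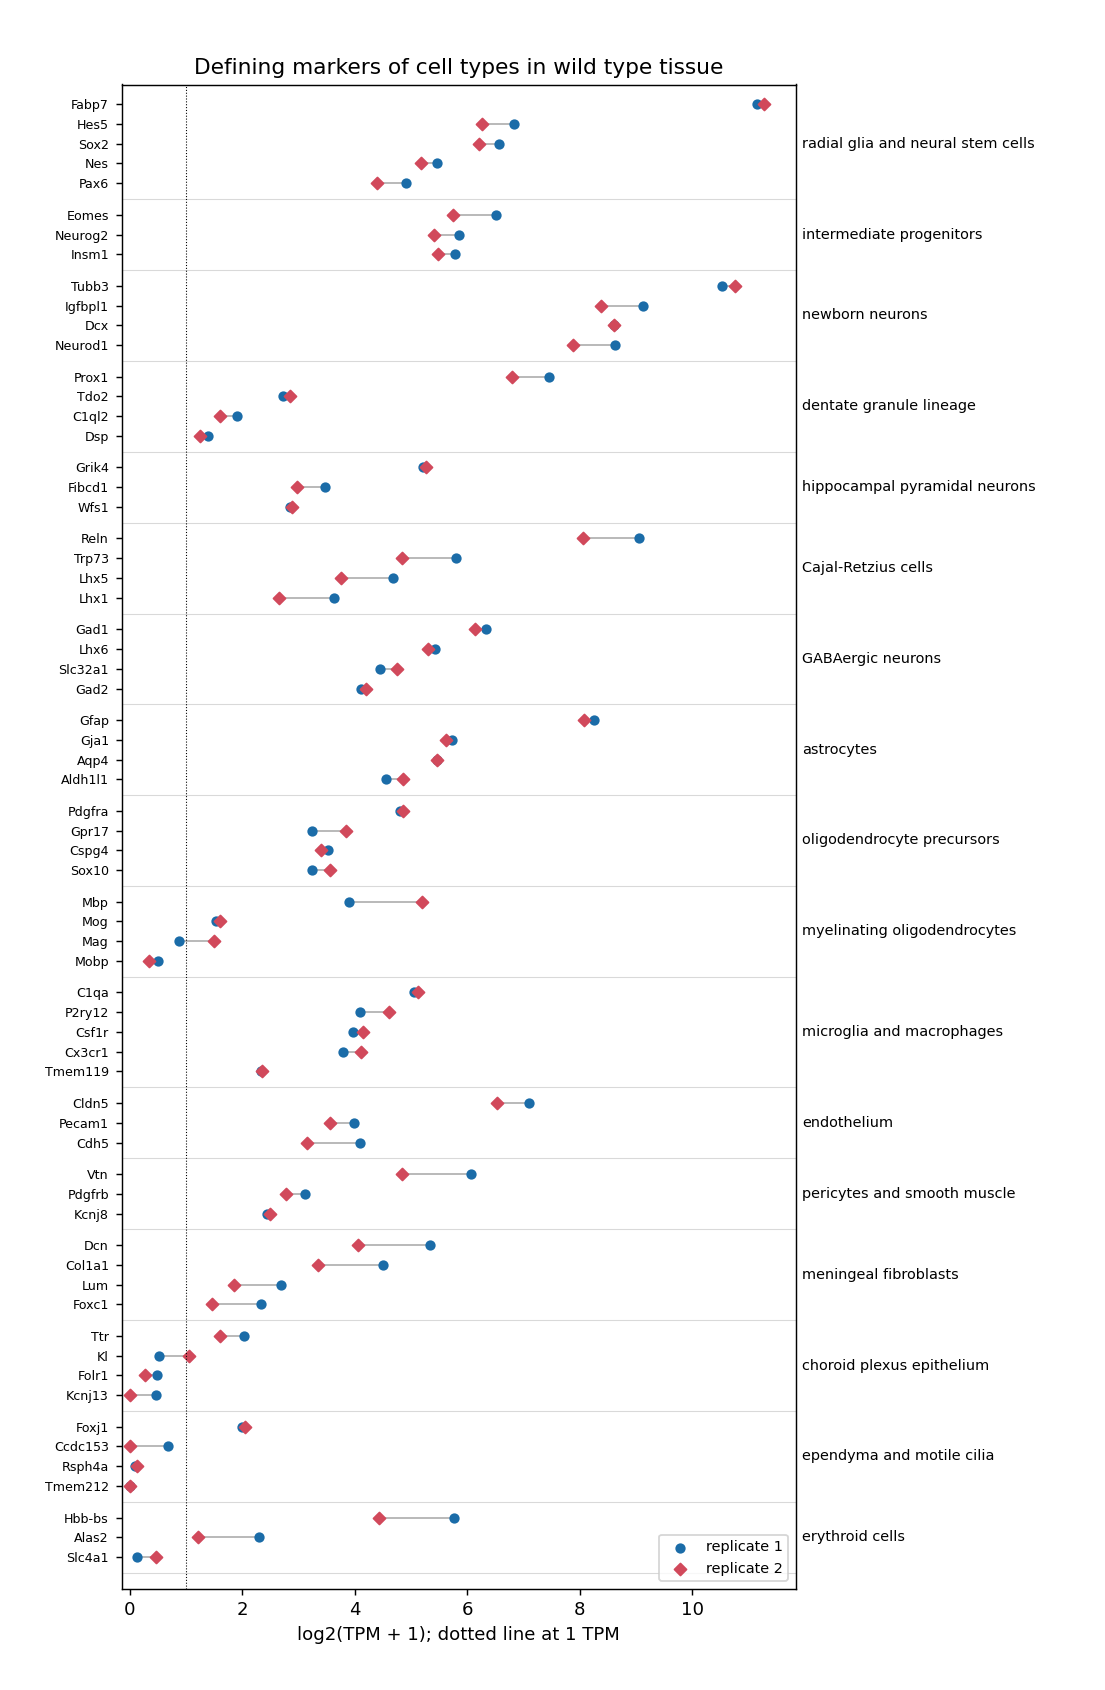
Levels of defining markers of 17 cell types in wild type tissue, as log2(TPM + 1), with circles for replicate 1, diamonds for replicate 2 and a dotted line at 1 TPM. Markers of progenitors, newborn neurons and astrocytes lie far to the right of the line. The granule lineage markers Dsp and C1ql2 lie close to it, and Tmem212, Rsph4a and Kcnj13 lie at or near 0.

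Regional identity was that of the dorsal telencephalon and the hippocampal field. Emx2, of the medial cortical wall, stood at 110 and 76.2 TPM. Emx1, of dorsal progenitors and pyramidal neurons, differed most among the telencephalic genes, at 98.6 and 43.0 TPM. Lhx2, needed for cortical as opposed to hem fate, was highest at 304 and 239 TPM, followed by Lmo4 (119.5 and 148 TPM), Bcl11a (122 and 120.3 TPM) and Nr2f1 (115 and 91.2 TPM). All 12 telencephalic genes and all 14 hippocampal field genes exceeded 1 TPM in both libraries, with medians at the 84.3th and 77.2th percentile. In the hippocampal field, Zbtb20 and Prox1 stood at the levels given above and Lef1, the Wnt effector needed for the dentate gyrus, at 23.1 and 14.5 TPM. The nuclear factor I genes, which the developing hippocampus requires, included Nfix at 1045 and 779 TPM, the highest transcription factor among all list members, and Nfib at 287 and 222 TPM. The receptor gene Nrp2 stood at 169 and 161 TPM.

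Signals of the cortical hem were low in both libraries. Wnt3a, the defining Wnt of the hem, was listed at 0 in both, Wnt2b stood at 1.63 and 1.91 TPM, Lmx1a above 1 TPM in both and Rspo2 at 7.76 and 9.14 TPM. Among 15 hem genes, 3 exceeded 10 TPM in both libraries, and all of these are active well beyond the hem: Id3 (225 and 166 TPM), Wnt5a (43.3 and 32.6 TPM) and the Wnt target Axin2 (34.7 and 27.9 TPM). Bmp7 stood at 9.06 and 5.50 TPM and Rspo3 at 5.58 and 4.75 TPM.

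Lists of neighbouring territories ranked lower, but their medians depend on which genes were listed. The neocortical genes Tbr1, Fezf2 and Cux1 exceeded Lef1 in both libraries. Neocortical genes had a median at the 38.4th percentile, with Tbr1 leading, Fezf2, of deep-layer neurons, at 63.1 and 48.6 TPM, Cux2 at 14.9 and 15.2 TPM and Rorb, of layer 4 in the mature cortex, at 2.06 and 1.94 TPM. Cux1 (64.2 and 48.8 TPM), Lmo3 (37.5 and 44.9 TPM) and Tle4 (27.7 and 26.3 TPM) were the other abundant members. In the ventral telencephalon list, progenitor and projection neuron genes were near 0, with Nkx2-1 at 1.73 and 1.04 TPM, Gsx2 at 0.22 and 0.39 TPM, Isl1 at 0 and 0.03 TPM and Lhx8 listed at 0 in both. Its higher members, Dlx1, Dlx2 (12.8 and 10.4 TPM) and Lhx6, are also expressed by migrated interneurons, and Zic1 (65.5 and 35.3 TPM) by medial and meningeal tissue. Foxp1 stood at 15.8 and 21.6 TPM.

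Tissue from behind the telencephalon left little trace. For the thalamus, Tcf7l2 stood at 2.61 and 3.41 TPM, Gbx2 at 0 and 0.30 TPM and Foxb1 at 0 and 0.03 TPM, and Sim1 was listed at 0 in both. The thalamic list's highest members were Lhx9 (49.9 and 34.0 TPM), which is listed for the hippocampal field too, and Prkcd (20.04 and 23.3 TPM). None of 15 midbrain and hindbrain genes reached 1 TPM, with En1 at 0.10 and 0.16 TPM, En2 at 0.02 and 0.22 TPM, Pax7 at 0.04 and 0.01 TPM and Hoxb3 listed at 0. Of the 39 Hox genes in the table, which pattern hindbrain, spinal cord and body, 0 reached 1 TPM in both libraries, and the highest value was 0.13 TPM. The Hox count was added after values had been seen.

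**Figure D2:**
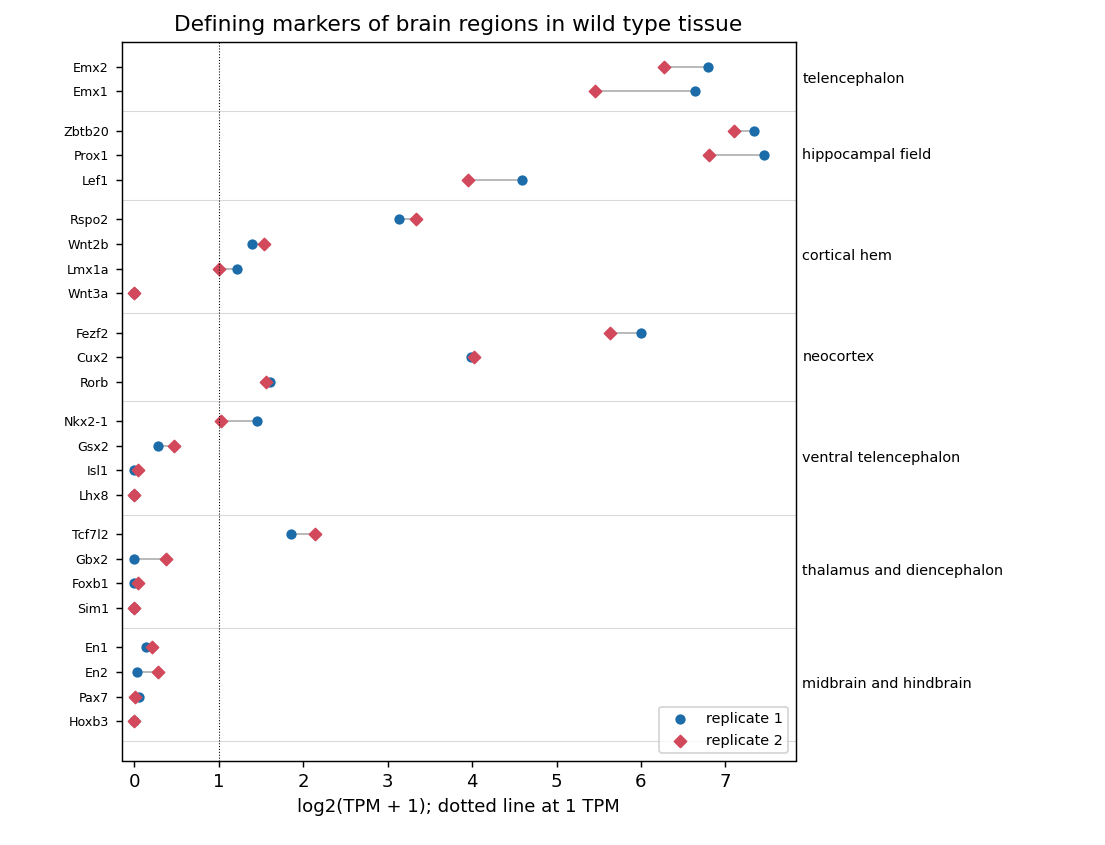
Levels of defining markers of 7 brain territories in wild type tissue, as log2(TPM + 1), with circles for replicate 1, diamonds for replicate 2 and a dotted line at 1 TPM. Prox1 and Zbtb20 lie above 100 TPM, and the midbrain and hindbrain markers lie below 1 TPM.

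Genes of dividing cells were expressed at middling levels. All 25 S phase genes and all 25 genes of G2 and M phase exceeded 1 TPM in both libraries, and their medians lay at the 55.1th and 51.8th percentile. Pcna, the sliding clamp of DNA replication, stood at 218 and 191 TPM, Mcm2, of the replicative helicase, at 38.0 and 26.5 TPM and Rrm2, which makes deoxynucleotides, at 59.3 and 43.05 TPM. Mcm7 (101 and 73.2 TPM), Mcm6 (75.2 and 56.5 TPM) and Slbp (49.1 and 44.3 TPM) were the other leading members. Of the defining mitotic genes, Top2a, which untangles DNA, stood at 90.8 and 57.5 TPM, the mitotic kinase gene Cdk1 at 83.5 and 50.6 TPM and Mki67 at 38.9 and 21.5 TPM. Hmgb2 (130.1 and 88.2 TPM), Ube2c (92.0 and 54.5 TPM) and Cenpa (61.8 and 38.7 TPM) led that list. All 25 mitotic genes and 24 of 25 S phase genes were higher in replicate 1, as were 9948 of the 14188 genes that averaged 1 TPM or more.

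The list for cell cycle exit and arrest, which also holds D cyclins that drive division, had its median at the 66.1th percentile. The inhibitor gene Cdkn1b stood at 95.4 and 80.1 TPM and Cdkn1c at 29.1 and 18.75 TPM. Ccnd2, the main D cyclin of cortical progenitors, stood at 105.5 and 100.2 TPM, Trp53 at 93.1 and 63.6 TPM and Cdkn2d at 57.7 and 66.1 TPM. In total 14 of 15 exceeded 10 TPM in both libraries, while Cdkn2a lay at 0.22 and 0.86 TPM.

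To show the regulatory sequence of these genes, the promoters of their 3 defining members are shown. Mitotic genes are known for the cell cycle homology region, with the core TTTGAA, which recruits the MuvB complexes that silence them outside G2 and M phase, and for CCAAT boxes bound by NF-Y. The sequences are RefSeq windows on GRCm38.p6 of the 250 bases before the gene start, at chr7:135716380-135716629 for Mki67, chr11:99024190-99024439 for Top2a and chr10:69352913-69353162 for Cdk1, all on the minus strand. They are written in the direction of transcription, with capitals for TTTGAA and CCAAT on either strand.
Mki67: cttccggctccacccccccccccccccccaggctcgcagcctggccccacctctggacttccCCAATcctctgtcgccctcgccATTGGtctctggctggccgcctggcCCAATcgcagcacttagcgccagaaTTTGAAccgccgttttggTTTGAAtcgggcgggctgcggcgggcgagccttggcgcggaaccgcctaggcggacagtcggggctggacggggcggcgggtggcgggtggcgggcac
Top2a: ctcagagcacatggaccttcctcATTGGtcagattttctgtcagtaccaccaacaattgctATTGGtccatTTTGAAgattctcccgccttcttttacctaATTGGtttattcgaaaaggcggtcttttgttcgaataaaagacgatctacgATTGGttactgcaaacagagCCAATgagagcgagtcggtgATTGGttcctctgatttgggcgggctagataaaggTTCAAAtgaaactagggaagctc
Cdk1: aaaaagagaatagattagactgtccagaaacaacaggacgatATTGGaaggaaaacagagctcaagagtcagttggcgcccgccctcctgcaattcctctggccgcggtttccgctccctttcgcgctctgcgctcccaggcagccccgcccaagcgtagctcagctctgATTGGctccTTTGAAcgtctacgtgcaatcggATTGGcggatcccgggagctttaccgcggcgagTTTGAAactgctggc
Each window held 2 copies of TTTGAA, and 3, 6 and 3 copies of CCAAT in the order shown, without overlap between the motifs. Among mitotic genes with a window, 8 of 22 (36.4%) held TTTGAA and 18 of 22 (81.8%) held CCAAT, counting a hit on either strand in any window of a gene. The shares over all 27025 genes with a window were 18.3% and 37.5%, and over 21 S phase genes 14.3% and 71.4%. A match is a match of letters only and says nothing of binding.

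The maturity of the tissue was mixed, with genes of synapses and glia beside those of newborn neurons. Transmitter release was represented in full by its listed genes. All 18 synaptic vesicle genes exceeded 10 TPM in both libraries, and their median lay at the 89.6th percentile. Snap25, of the fusion machinery, stood at 251 and 347 TPM, Syt1, the calcium sensor, at 103 and 137 TPM, Cplx2 at 359 and 446 TPM, Rab3a at 336 and 388 TPM, Vamp2 at 282 and 327 TPM and Syp at 257 and 348 TPM. Among 21 glutamate receptor and postsynaptic genes, all exceeded 1 TPM in both libraries and 6 exceeded 100 TPM. Camk2b, a kinase of the postsynaptic density, stood at 421 and 484 TPM, Camk2a at 121 and 295 TPM, Nrgn, a calmodulin-binding protein of dendrites, at 248 and 362 TPM, the scaffold gene Dlg4 at 155 and 187 TPM and the AMPA receptor gene Gria2 at 203 and 192 TPM. GABA receptor and chloride transporter genes ranked lower, with a median at the 50.1th percentile and 0 of 12 above 100 TPM in both libraries. The list had Gabra5 (90.5 and 148 TPM) at its head and Gabrd, of mature granule cells, at its foot (1.27 and 2.01 TPM). Among genes of the mature neuronal cytoskeleton and excitability, Mapt (655 and 845 TPM) and Map2 (570.0 and 599 TPM) led, followed by Pcp4 (276 and 192 TPM) and Gabarapl1 (210.5 and 209.9 TPM). Rbfox3, the neuronal nuclear antigen, stood at 142 and 135 TPM, Eno2 at 68.8 and 114 TPM and Thy1 at 50.2 and 90.3 TPM, but the heavy neurofilament gene Nefh only at 2.08 and 3.48 TPM.

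The defining genes of early gestation were low. Lin28a was listed at 0 and 0.05 TPM, Lin28b at 0.43 and 0.70 TPM, Hmga2 at 0.16 and 0.11 TPM and Igf2bp1 at 2.74 and 1.58 TPM. In that list Igf2 (124 and 54.3 TPM), Hmga1 (89.2 and 75.1 TPM), Mest (60.9 and 41.4 TPM), Peg3 (39.2 TPM in both) and Plagl1 (11.4 and 13.6 TPM) were the members above 10 TPM in both libraries. Gfap and Aqp4 are known to come up late in gestation and after birth, as are Camk2a and Mbp. Progenitor genes were present as the label of a neuroepithelium has it. The levels of these late genes and the lack of embryonic globins put the labelled embryonic day 14 in doubt. Other late genes were low, with Mog at 1.90 and 2.03 TPM, Nefh at 2.08 and 3.48 TPM and Pvalb at 0 and 0.29 TPM. In the 13 pairs below, the earlier gene was higher in both libraries for 8 and the later gene for 4. No tissue of known age was set beside these pairs, so that count cannot decide the stage. Whether the age label is right was not tested. The tissue is called by its label here, and its stage could not be set from these files.

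Pairs of an earlier and a later gene, as known from brain development, were compared within each library. Of 13 pairs with a ratio, the earlier gene was higher in both libraries for 8, the later gene for 4, and the order differed between the libraries for 1. Earlier forms prevailed for Nefm over Nefh (46.5 and 68.9 TPM for Nefm, ratios 22.3 and 19.8), Calb2 over Calb1 (18.5 and 27.1 TPM for Calb1, ratios 24.6 and 11.1) and Pdgfra over Mog (ratios 14.1 and 13.7). For the NMDA receptor subunits, Grin2b (19.2 and 27.3 TPM) exceeded Grin2a (4.56 and 7.64 TPM) 4.22-fold and 3.57-fold. Gap43, of growth cones, exceeded Camk2a 5.91-fold and 3.43-fold at 713 and 1012 TPM. Dcx exceeded Rbfox3 2.73-fold and 2.91-fold, and Slc1a3 exceeded Slc1a2, the later glial glutamate transporter gene (104 and 113 TPM), 2.57-fold and 2.36-fold.

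Later forms prevailed for Gfap over Nes (ratios 7.09 and 7.58), Dlg4 over Dlg3 (36.4 and 41.9 TPM for Dlg3, ratios 4.27 and 4.47), Slc17a7 over Slc17a6, the vesicular glutamate transporter genes (79.8 and 190 TPM against 48.8 and 30.03 TPM, ratios 1.64 and 6.31), and Thy1 over Igf2bp1 (ratios 18.3 and 57.1). The chloride transporter genes changed order, with Slc12a2, which loads young neurons with chloride, at 24.9 and 21.1 TPM and Slc12a5, which extrudes it later, at 21.4 and 37.1 TPM. In 11 of 13 pairs the ratio of later to earlier gene was higher in replicate 2. For Hbb-y and Hbb-bs no ratio was formed, because Hbb-y was listed at 0.

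**Figure D3:**
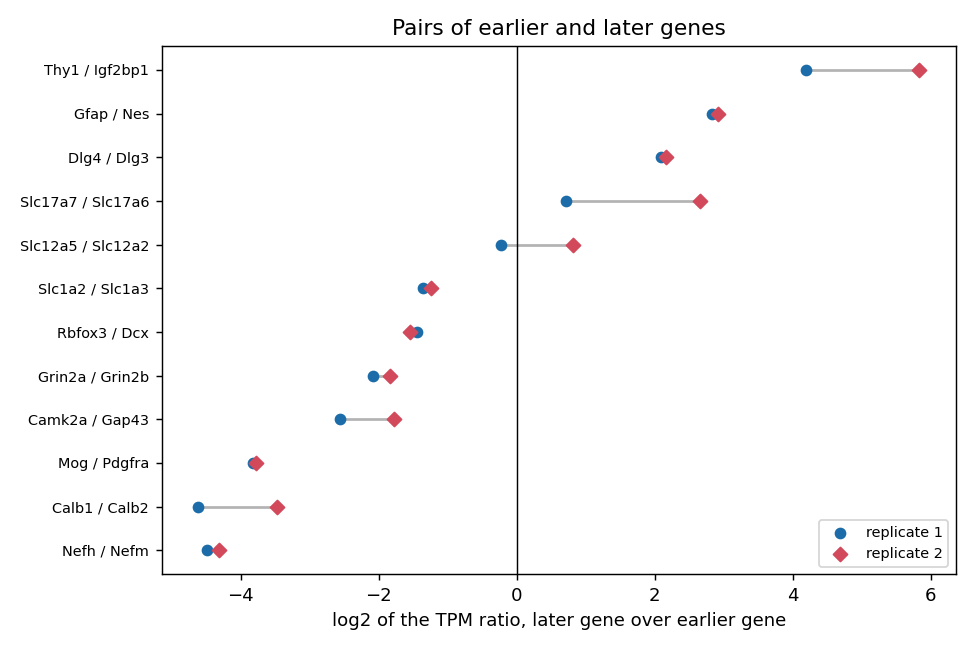
Log2 of the TPM ratio of the later to the earlier gene in 12 of the 13 pairs, with circles for replicate 1 and diamonds for replicate 2; values right of 0 mean that the later gene was higher. Slc12a5 over Slc12a2 lies on either side of 0, and Slc17a7 over Slc17a6 differs most, at ratios of 1.64 and 6.31.

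Both libraries were next set against each other gene by gene, on the log2(TPM + 1) scale, which understates differences of low genes. Over the same 14188 genes, Pearson's r was 0.983 and Spearman's rho 0.985, a likeness over genes of 2 libraries and not over samples. The median difference, replicate 2 minus replicate 1, was -0.13, so most genes were slightly higher in replicate 1 (9948 against 4221). At least 2-fold higher on this scale in replicate 1 were 130 genes (0.916%), and in replicate 2 88 genes (0.62%). After TMM scaling, which removes most of the common shift, this split was 101 and 134. Of genes with a mean of 1 to 5 TPM 3.88% differed at least 2-fold in either direction, and of those above 100 TPM 0.875%.

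The counts of the lists are to be read against the 9948 of 14188 genes that were higher in replicate 1. Lists of meninges and blood were furthest toward replicate 1. For meningeal fibroblasts the median difference was -1.16, 13 of 14 genes above the minimum were higher in replicate 1, 9 of them at least 2-fold, and the summed level was 374 and 176 TPM. For erythroid genes the median was -1.34, all 5 genes above the minimum were higher in replicate 1, and the sum was 774 and 293 TPM. Endothelial genes (median -0.43, 14 of 15 higher in replicate 1) and pericyte genes (-0.34, 10 of 11) lay on the same side.

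Among neural lists, Cajal-Retzius cells (median -0.79, 12 of 13 higher in replicate 1), G2 and M phase (-0.66, 25 of 25), intermediate progenitors (-0.57, 13 of 13), the hippocampal field (-0.44, 12 of 14), S phase (-0.39, 24 of 25), the telencephalon list (-0.34, 10 of 12) and radial glia (-0.27, 16 of 20) lay on the side of replicate 1. The fetal growth list had a median of -0.54, and its 7 of 10 genes higher in replicate 1 are close to the share among all genes. On the side of replicate 2 were hippocampal pyramidal neurons (median 0.37, or 0.15 when the minimum average was raised to 5 TPM, 13 of 17 higher in replicate 2), glutamate receptors and postsynaptic density (0.34, 17 of 21), synaptic vesicles (0.31, 16 of 18), GABA receptors (0.31, 11 of 12), myelination (0.33, 9 of 11) and mature neuronal cytoskeleton (0.19, 16 of 20). The defining pyramidal markers named above did not share the shift of their list. Grik4 (difference 0.06) and Wfs1 (0.03) were nearly equal, and Fibcd1 (-0.50) was higher in replicate 1. All list medians named so far kept their sign after both rescalings. The shifts of the rescalings were smaller than each of these medians, so no sign could have changed.

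Outside the meningeal and erythroid lists, members past 2-fold numbered at most 3 in any list and direction. The lists are short, so such counts can still exceed the shares among all genes, 0.916% toward replicate 1 and 0.62% toward replicate 2. Of 17 pyramidal genes, 3 passed 2-fold toward replicate 2, namely Crym, Pou3f1 (0.51 and 4.86 TPM) and Nts (0.82 and 2.64 TPM). Of 11 pericyte genes, 2 did so toward replicate 1. The other glial lists also lay on the side of replicate 2, with medians of 0.09 for astrocytes (14 of 20 higher in replicate 2), 0.19 for oligodendrocyte precursors (9 of 14) and 0.17 for microglia (14 of 18). Newborn neurons had a median of -0.02 with 10 genes on each side, and it turned to 0.12 after TMM scaling and to 0.04 after rescaling over nuclear genes. Within that list Nhlh2, Nhlh1 (43.0 and 24.1 TPM), Igfbpl1 and Neurod1 were lower in replicate 2, while Neurod6, Stmn2 and Gap43 were higher there, under either rescaling as well. The granule lineage median was -0.17, close to that of all genes, and its early members Prox1, Neurod1 and Igfbpl1 were lower in replicate 2. GABAergic neurons had a median of 0.05, which was -0.04 when the minimum average was raised to 5 TPM. Medians were -0.07 for neocortex and -0.07 for thalamus and diencephalon, both turning above 0 after TMM scaling. They were -0.28 for ventral telencephalon, -0.21 for the cortical hem, -0.23 for choroid plexus, -0.18 for ependyma and -0.28 for cell cycle exit.

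**Figure D4:**
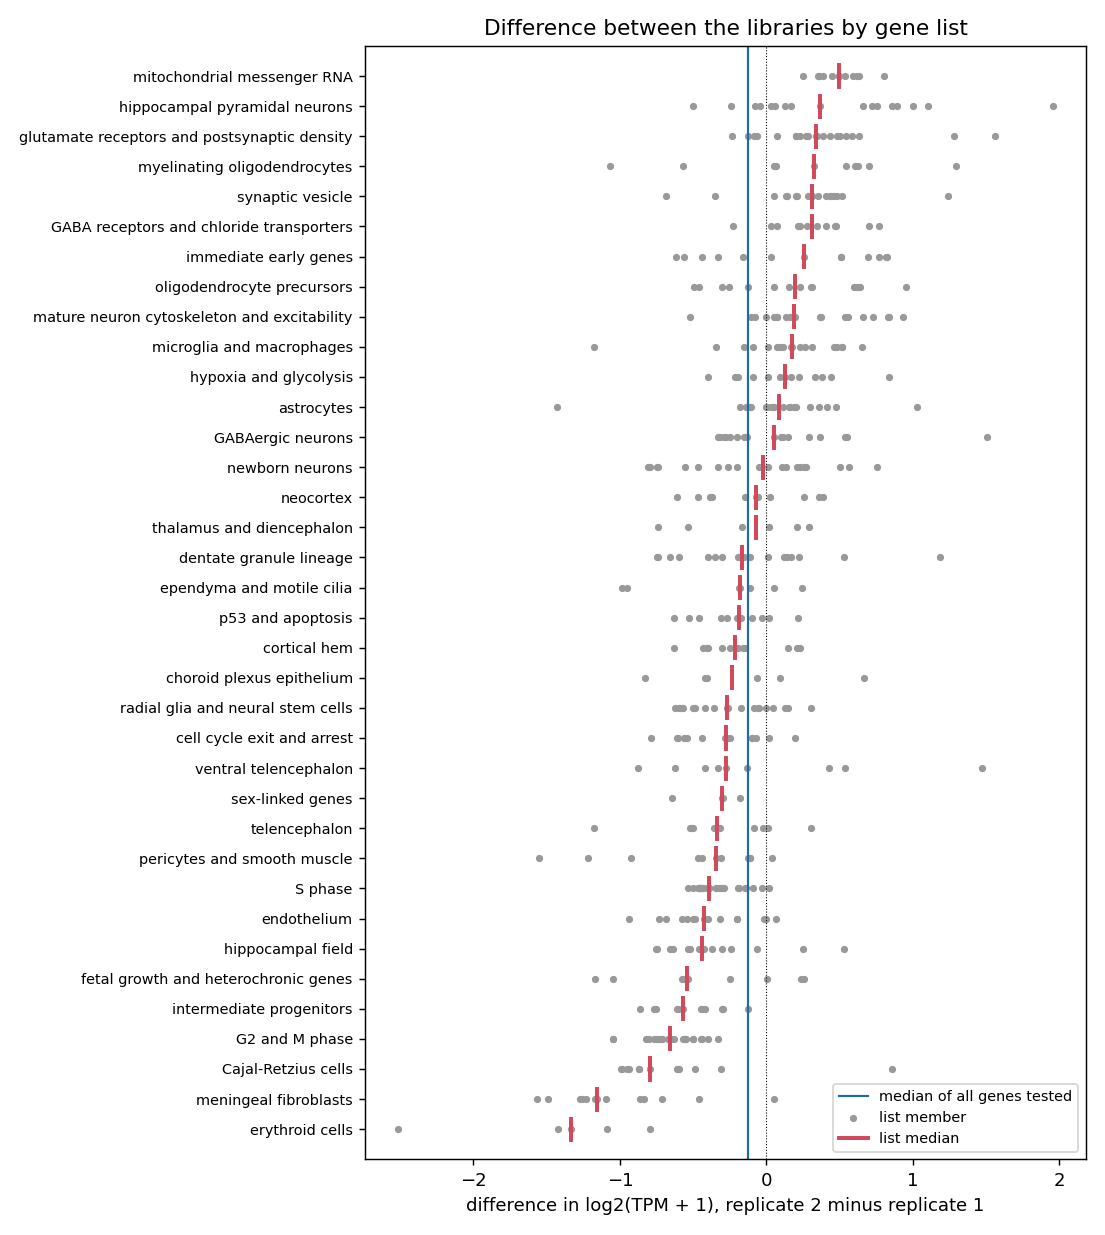
Difference in log2(TPM + 1), replicate 2 minus replicate 1, for the members of each list that averaged 1 TPM or more (grey points) with the list median (red bar) and the median of all 14188 genes (blue line, -0.13). The medians of the erythroid, meningeal, Cajal-Retzius and mitotic lists lie left of the line, and those of the synaptic, pyramidal and mitochondrial lists right of it, with single members on the other side in several lists.

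Genes were then named by the size of their difference, leaving out ribosomal protein genes, pseudogenes and provisional symbols, which held the largest differences of the table. Of the 12 named genes that were higher in replicate 1, Hba-a2 (330.3 and 57.0 TPM) and Hbb-bt (42.2 and 15.1 TPM) are globins. Ptgds, a prostaglandin synthase abundant in meninges (225 and 66.7 TPM), Aldh1a2, which makes retinoic acid there (16.1 and 4.78 TPM), Col3a1 (43.6 and 14.9 TPM) and the procollagen enhancer Pcolce (12.4 and 3.96 TPM) belong with connective tissue. The others were Mid1 (81.6 and 17.6 TPM) and Erdr1 (266 and 87.2 TPM), both of the region shared by the sex chromosomes, the histone gene Hist2h2aa1 (12.8 and 2.74 TPM), H2-T22, of the major histocompatibility complex (7.93 and 2.13 TPM), Cpne9 (19.5 and 6.73 TPM) and the stress gene Nupr1 (9.76 and 3.17 TPM). Emx1 and Igf2, named above, also passed 2-fold.

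Of the 12 that were higher in replicate 2, several are genes of maturing forebrain neurons. They included Ddn, a postsynaptic protein (17.5 and 53.4 TPM), the peptide gene Cck (77.9 and 224 TPM), Cpne6 (5.48 and 17.75 TPM), Fxyd7, a regulator of the sodium pump (46.5 and 123 TPM), the receptor genes Npy2r (3.39 and 10.5 TPM) and Mas1 (4.76 and 13.75 TPM), and Tuba4a, a tubulin of mature neurons (18.4 and 65.5 TPM). Pcdhga11, a clustered protocadherin (6.87 and 31.6 TPM), Sertm1 (9.52 and 32.7 TPM), Fam107a (2.65 and 9.97 TPM), the heat shock gene Hspa1b (5.47 and 17.6 TPM) and Cstb, a protease inhibitor (19.8 and 51.2 TPM), completed them. Camk2a, Slc17a7 and Mbp, named above, also passed 2-fold in this direction. Meningeal, blood and vessel genes moved together with the progenitor and mitotic genes between the libraries, and their part in the other differences was not tested.

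**Figure D5:**
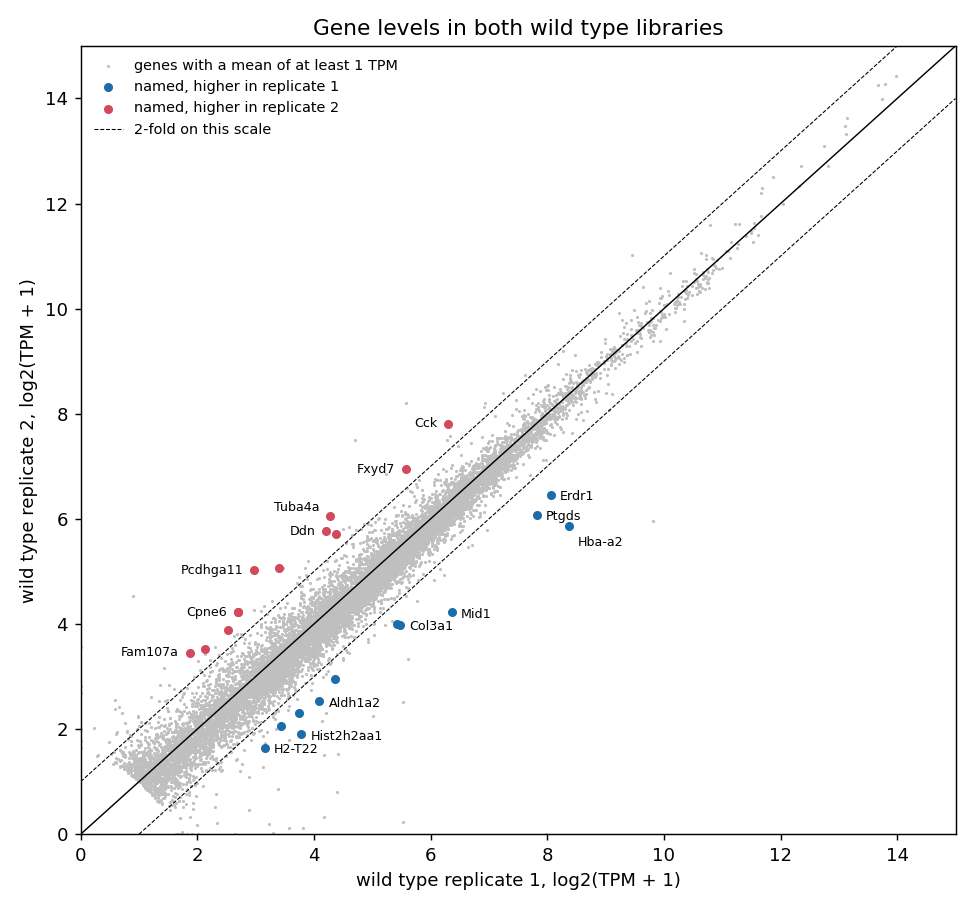
Levels of the 14188 genes averaging 1 TPM or more in wild type replicate 1 against replicate 2, as log2(TPM + 1), with the line of equality and dashed lines at a 2-fold difference. The 12 named genes of each direction are coloured, from Hba-a2 and Mid1 below the lines to Cck and Tuba4a above them.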

How the data were processed

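Poly(A) RNA of 2 wild type libraries was analysed out of 6. The authors deposited 1 table of TPM for 35274 genes. Per the submitters' processing notes it involved FastQC and RSEM with mm10 and GRCm38, while the series' design text, per the labels, names TopHat 2.0.11 and Cufflinks 2.2.1, so which made the TPM is not settled. TPM keeps no read depth, so no counting interval was possible. A TPM total is fixed, so abundant transcripts lower all others. How reads shared by near-identical genes were divided is not given in the sources used here. Types and positions came from GENCODE vM21 (34845 rows matched). Where a symbol had several rows, the highest was used.

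Members, the 37 gene lists and the 14 stage pairs were chosen with earlier results of these data known. Named genes were Sox11, Sox4 and Sox12, the 25 most abundant genes, from each list the 5 most abundant and the defining members, the genes of the pairs, and the 12 largest differences in each direction among genes averaging 5 TPM or more. Mitochondrial and ribosomal genes, pseudogenes and provisional symbols were left out. Some genes stand in several lists. Differences used log2(TPM + 1) for genes averaging 1 TPM or more. Counting was tested on simulated data. Alternatives were pseudocount, filter, fold, scaling (TMM without weights, or TPM rescaled over nuclear protein-coding genes without ribosomal proteins) and leaving out a library. Python 3.11.15, pandas 2.3.3 and numpy 2.4.6 were used. The genes Xist, Tsix, H19, Ahsp and Dlx6os1 were listed but not analysed here, and some other genes that the rule names are not reported here.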

Additional observations from a re-analysis of the deposited data

How the results depend on the processing

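Counts of genes at least 2-fold higher in replicate 1 and in replicate 2 were 130 and 88. They were 259 and 170 with a pseudocount of 0.1, 71 and 51 among genes averaging 5 TPM or more, and 697 and 394 at 1.5-fold. With TMM scaling the second count was 134. The 100 most abundant genes held 28.9% of TPM, and 19.04% when nuclear protein-coding genes without ribosomal proteins were rescaled to the same total. Median differences changed sign for newborn neurons (0.12 with TMM scaling and 0.0375 with rescaling over nuclear genes, the latter chosen after seeing the data), neocortex (0.034 with TMM scaling), thalamus and diencephalon (0.0199 with TMM scaling) and GABAergic neurons (-0.0413 among genes averaging 5 TPM or more). Under that filter the medians of pyramidal neurons (0.15) and of thalamus and diencephalon (-0.54) also moved. The log2 ratio of Slc12a5 to Slc12a2 ran from -0.22 to 0.81 when a library was left out. Rescaling multiplied values by 1.30 and 1.35 in replicates 1 and 2, by which 33 of 37 list sums moved beyond the spread between libraries. All 24 named differences stayed past 2-fold under a pseudocount of 0.1 and both scalings. This followed from their choice as the largest differences and is no support for them. The scalings shifted them too little to bring any below 2-fold, and a smaller pseudocount widens differences. No paired analysis was possible because a single genotype with 2 libraries was described and no test was made. Precision is limited by 2 libraries of unknown depth.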

Other observations

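Mitochondrial messages were higher in replicate 2 for all 13 genes, with a median log2 difference of 0.49 and a sum of 101350 and 139141 TPM. mt-Co2, the most abundant gene of the table, stood at 16119 and 21982 TPM. Glycolytic genes were led by Ldha (319 and 432 TPM), Aldoa (333 and 389 TPM), Eno1 (309 and 402 TPM) and Pgk1 (247.5 and 278 TPM), while the hypoxia markers Car9 (0.04 and 0.05 TPM) and Ankrd37 (3.32 and 3.73 TPM) were low and Vegfa stood at 62.2 and 62.7 TPM. The list of both had a median difference of 0.13. Of 14 p53 and apoptosis genes 12 exceeded 1 TPM in both libraries (median difference -0.19), with Bax at 205 and 179 TPM, Bbc3 at 39.2 and 39.6 TPM, Cdkn1a at 15.6 and 14.5 TPM and Eda2r at 4.87 and 3.88 TPM. Immediate early genes rise within minutes of neuronal activity or handling. Of 15 listed, 11 exceeded 1 TPM and 5 exceeded 10 TPM in both libraries, and the highest mean was 32.1 TPM (median difference 0.25). Fos stood at 1.36 and 2.36 TPM, Arc at 0.96 and 2.45 TPM and Egr1 at 3.45 and 6.57 TPM.

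Y-linked genes were present in both libraries, with Eif2s3y at 100.7 and 64.0 TPM, Ddx3y at 40.2 and 35.4 TPM, Kdm5d at 20.5 and 16.5 TPM and Uty at 13.8 and 11.03 TPM. All 4 were higher in replicate 1 (median -0.30).

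Transcription factor families gave a further view of the region, counted by symbol after values had been seen. All 5 Zic genes and all 4 nuclear factor I genes exceeded 1 TPM in both libraries, with family sums of 148 and 83.4 TPM and of 1441 and 1090.4 TPM. Of 8 Lhx genes 5 did so, of 9 Pax genes Pax6 alone and of 6 Irx genes Irx1 alone (1.59 and 1.31 TPM).

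Several of the largest differences involved repeated or near-identical genes, whose single levels are uncertain. Rps18, a ribosomal protein gene, stood at 897 and 61.2 TPM, and the pseudogene Gm10020 at 252 and 0 TPM. The pseudogenes Rpl15-ps3 (25.2 and 180 TPM) and Rpl15-ps2 (13 and 0.08 TPM) differed in opposite directions while Rpl15 itself stood at 1322 and 1310 TPM. Mid1-ps1, on chromosome Y, stood at 45.1 and 0.18 TPM, beside Mid1 at 81.6 and 17.6 TPM. At the start of chromosome 14, between 3049285 and 7568566 on GRCm38, 32 protein-coding genes with provisional Gm symbols reached a mean of 1 TPM. Of these 24 were higher in replicate 1, 14 of them at least 2-fold, and their sum was 345.5 and 121 TPM. Among all 14188 genes, 9948 were higher in replicate 1, a share close to that of these genes. At least 2-fold higher in replicate 1 were 130 (0.916%) of all 14188. Of the 218 genes past 2-fold in either direction, 47 were pseudogenes. The share of pseudogenes among all 14188 genes was not counted, so the 47 cannot be read as an excess. Of the 13812 genes that reached 1 TPM in both libraries, a narrower set, 96.3% were protein-coding. How far the authors' division of shared reads contributes was not tested.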
